A study of Homo sapiens with 9 samples.

Results

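The aryl hydrocarbon receptor circuit of BEAS-2B cells is described here through 7 genes: AHR, the receptor, ARNT, its DNA-binding partner, AHRR, its repressor, and the target genes CYP1A1, CYP1B1, TIPARP and ALDH3A1. The genes were picked by name, as the receptor and the best known members of its response, at a time when their response to EC in these data was already known. Their differences between EC and the other conditions are therefore given as a description, without a p-value. All 7 were found by Ensembl identifier among the 63187 genes of the count table, and all 7 belonged to the 16030 genes tested, the ones that reached 10 counts in 3 or more libraries. Every one of them had at least 13 counts in every library, so none entered the tests through a single condition.

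RNA-seq was performed on BEAS-2B, 1 immortalized line of human bronchial epithelial cells. Cells were left untreated (control) or kept for 24 h with 2% (v/v) aerosol condensate. The PG/VG condensate came from the carrier, propylene glycol and vegetable glycerin, and the EC condensate from a liquid with 18 mg/mL nicotine and Virginia tobacco flavour. Nicotine and flavour came together, in a commercial liquid whose carrier ratio the study does not give. Their effects, and those of any difference in carrier, cannot be told apart in EC vs. PG/VG. A fall in the number of cells making an RNA cannot be told apart from less RNA per cell. Each condition had 3 libraries, numbered 2, 3 and 4, and the number is also the labelled batch.

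Between 16168260 and 24917838 counts were assigned to genes per library. Values are CPM, the counts of a gene scaled to a common library total, after TMM normalization of library sizes, with factors from 0.971 to 1.045. Libraries with the same batch number deviated together from their condition means (r from 0.334 to 0.707 in 9 pairs). This set only batch 4 apart. Among libraries numbered 2 and 3, pairs with the same number had r from 0.334 to 0.399 and pairs with different numbers from 0.280 to 0.426. The matching of libraries within batches 2 and 3 therefore rests on the labels. The batch is a term in every test. The batch term was significant for 34.3% of genes tested. Of the markers checked, the keratins KRT8, KRT18 and KRT7 lay between 301 and 1174 CPM in every library and KRT19 between 16.8 and 23.1 CPM, whereas EPCAM and CDH1, which define epithelial junctions, did not exceed 1.93 and 1.59 CPM and KRT5 had at most 1 count. The mesenchymal markers VIM (822 to 1114 CPM), CDH2 (247 to 375 CPM), FN1 (2360 to 5545 CPM) and COL1A1 (51.5 to 107 CPM) were all abundant. The leukocyte markers PTPRC, CD3E and CD68 had at most 2, 0 and 7 counts, and CD14 had 3.07 to 8.89 CPM. The endothelial markers PECAM1 and VWF had at most 12 and 11 counts, and CDH5 had 3.73 to 7.15 CPM.

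AHR is a transcription factor of the bHLH-PAS family that is activated by ligands, among them polycyclic aromatic hydrocarbons, dioxins and products of tryptophan metabolism. Without a ligand it is held in the cytosol by a complex of chaperones that includes HSP90. With a ligand it enters the nucleus, pairs with ARNT and binds xenobiotic response elements, whose core is GCGTG, in front of genes of foreign compound metabolism. Induction of CYP1A1 and CYP1B1 is a long known response of airway epithelium to tobacco smoke. The circuit limits itself, since AHRR competes for ARNT and for the element, and TIPARP attaches ADP-ribose to AHR.

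The sequence in front of the genes shows where such cores lie. Promoters of 5 of the 7 genes, AHR, ARNT, AHRR, CYP1A1 and TIPARP, were present in the RefSeq table used here (GRCh38.p14). Each was read from the genome as the 250 bases before a single RefSeq start of transcription. For AHR and TIPARP this whole window lies inside the gene bounds given below, which reach further upstream, and other starts were not read. Capitals mark the core GCGTG or, where the core is on the other strand, its reverse complement CACGC. The first line is the promoter of CYP1A1 (chr15:74725529-74725778, minus strand). The second is a stretch of 250 bases within 1500 bases of the CYP1A1 start that holds 4 cores, which other stretches overlapping it also reach (chr15:74726394-74726643, minus strand), near where the xenobiotic enhancer of the gene is known to lie. The third is a stretch with 5 cores in front of the RefSeq start of TIPARP used here (chr3:156674305-156674554, plus strand). The last is the promoter of AHRR (chr5:321464-321713, plus strand).
CYP1A1 promoter: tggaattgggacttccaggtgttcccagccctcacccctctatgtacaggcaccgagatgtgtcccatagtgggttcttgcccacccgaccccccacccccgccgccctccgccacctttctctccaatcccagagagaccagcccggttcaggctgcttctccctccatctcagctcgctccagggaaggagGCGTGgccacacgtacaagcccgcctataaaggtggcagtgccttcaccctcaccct
CYP1A1 upstream stretch: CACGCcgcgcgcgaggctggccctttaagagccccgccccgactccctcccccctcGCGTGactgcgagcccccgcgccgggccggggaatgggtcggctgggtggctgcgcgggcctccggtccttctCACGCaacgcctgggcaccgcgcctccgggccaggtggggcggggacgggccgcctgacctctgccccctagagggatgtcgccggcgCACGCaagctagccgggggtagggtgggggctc
TIPARP upstream stretch: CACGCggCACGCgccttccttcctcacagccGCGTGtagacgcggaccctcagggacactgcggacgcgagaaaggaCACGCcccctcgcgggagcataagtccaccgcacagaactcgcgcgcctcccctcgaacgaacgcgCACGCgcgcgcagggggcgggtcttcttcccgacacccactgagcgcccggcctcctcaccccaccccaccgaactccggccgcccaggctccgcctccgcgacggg
AHRR promoter: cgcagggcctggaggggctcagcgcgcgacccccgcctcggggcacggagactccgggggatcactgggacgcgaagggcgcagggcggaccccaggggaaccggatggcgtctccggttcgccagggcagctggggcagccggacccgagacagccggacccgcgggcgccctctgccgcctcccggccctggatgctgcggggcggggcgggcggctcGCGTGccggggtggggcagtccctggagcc

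The CYP1A1 promoter held 1 core and its upstream stretch, between the positions −1115 and −866 from the start, held 4. Over 1500 bases, CYP1A1 had 10 cores, a number reached or passed in 0.656% of the 15842 protein-coding genes with a promoter in the table. TIPARP had 6 cores (as many or more in 7.01% of genes), of which 5 fell between the positions −285 and −36. ARNT had 5 (12.7%) and AHRR 4 (22.1%), close to what many genes carry, and AHR had 0 before the start used. The longer form TNGCGTG, which contains the core, was found 5 times in front of CYP1A1, 2 times in front of ARNT, 1 time in front of AHRR and 0 times in front of TIPARP and AHR.

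**Figure D1:**
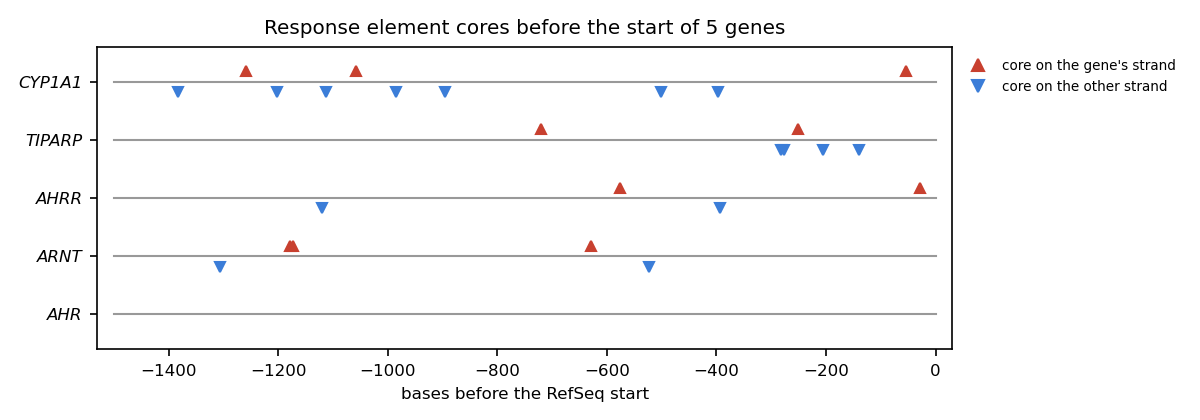
Position of each GCGTG core, on either strand, in the 1500 bases before the RefSeq start of CYP1A1, TIPARP, AHRR, ARNT and AHR. The horizontal axis is the distance from the start in bases, triangles pointing up are cores on the strand of the gene and triangles pointing down cores on the other strand. The 10 cores of CYP1A1 spread over the whole window, 5 of the 6 of TIPARP sit close to the start, and AHR has none.

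A single core is common. At least 1 core stood in the 250-base promoter of 39.2% of all genes and of 45.6% of the 10587 tested genes with a promoter in the table. Among genes called higher in EC vs. control the share was 38.9% of 928, beside 46.7% of the 640 called lower. Among those called higher in EC vs. PG/VG it was 45.8% of 59, beside 51.5% of the 33 called lower. The core is shared with part of the hypoxia response element (the letters CGTG after A or G), so a match does not show which factor binds.

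In untreated cells the 7 genes differed widely in level. Per kilobase of exon, CYP1B1, a cytochrome P450 that oxidizes polycyclic hydrocarbons and oestradiol, was the most abundant with 63.4 ± 4.55 CPM per kb (SD, n = 3), above 96.3% of the 15949 tested genes with a known length. TIPARP followed with 12.6 ± 2.40 CPM per kb, then AHR with 8.21 ± 1.95 and ARNT with 6.70 ± 0.380. CYP1A1, the classical inducible P450 of the pathway, stood at 0.516 ± 0.265 CPM per kb, above 19.9% of genes, and ALDH3A1 and AHRR at 0.233 ± 0.0223 and 0.192 ± 0.0306. The control libraries of AHR and ARNT overlapped in level, and so did those of ALDH3A1 and AHRR, so neither pair could be ordered. The exon lengths used include stretches shared with other genes, 35.15% for AHR and 58.66% for AHRR, where reads were not counted. The levels per kb of these 2 genes may thus be understated, and their places in the order are not settled. In EC the means over whole exon lengths kept the same order, from 245 CPM per kb for CYP1B1 to 0.294 CPM per kb for AHRR. The same limit holds there for AHR and AHRR.

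The levels of the receptor and of its partner in EC overlapped those in both other conditions. AHR (ENSG00000106546, chromosome 7 from 16916359 to 17346152, plus strand) had 82.0, 65.8 and 50.5 CPM in control libraries 2, 3 and 4. The PG/VG libraries had 56.7, 51.0 and 49.2 CPM, and the EC libraries 66.1, 61.2 and 48.9 CPM. The levels of all conditions overlapped, and in each condition library 2 was the highest and library 4 the lowest. AHR was the only member with a significant batch term (adjusted p = 0.000827). Adjusted p-values here and below are Benjamini-Hochberg values of the quasi-likelihood F test in edgeR. Its mean levels were 68.3, 59.4 and 49.5 CPM in batches 2, 3 and 4. Of its exon length, 35.15% overlaps other annotated genes (29.47% on the same strand), and reads that overlap several genes were not counted.

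In EC vs. control the LFC (log2 fold change) of AHR was −0.16 (SE 0.084), and the differences within batches 2, 3 and 4 were −0.31, −0.10 and −0.048. In EC vs. PG/VG it was 0.16 (SE 0.084). Between batches, AHR differed by −0.19 from batch 2 to batch 3 and by −0.44 from batch 2 to batch 4.

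ARNT (ENSG00000143437, chromosome 1 from 150809713 to 150876708, minus strand) is the obligate partner of AHR and also of the hypoxia-inducible factors. Control libraries had 44.02, 45.1 and 40.4 CPM, PG/VG libraries 54.8, 50.8 and 44.4 CPM and EC libraries 46.8, 49.7 and 42.6 CPM. The 3 conditions overlapped in level, but within each batch the order was control, EC, PG/VG. Within batches 2, 3 and 4, EC exceeded the control by 0.088, 0.14 and 0.074 on the log2 scale. The LFC of ARNT was 0.10 (SE 0.078) in EC vs. control and −0.11 (SE 0.076) in EC vs. PG/VG.

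AHRR (ENSG00000063438, chromosome 5 from 321714 to 438291, plus strand) resembles AHR but lacks its ability to activate transcription, and is itself a known target. It was sparsely expressed, from 27 to 85 counts. Control libraries had 2.10, 1.86 and 1.52 CPM, PG/VG libraries 1.93, 1.48 and 1.63 CPM and EC libraries 2.30, 3.62 and 2.43 CPM. All EC libraries lay above all others, but EC library 2 exceeded control library 2 by little. The LFC of AHRR was 0.60 (SE 0.24) in EC vs. control and 0.70 (SE 0.24) in EC vs. PG/VG, and within batches it ran from 0.13 to 0.93 in the former and from 0.25 to 1.24 in the latter. Without EC library 3 these became 0.34 and 0.45. A readthrough gene, PDCD6-AHRR, covers 58.66% of the exon length of AHRR, so the counts rest on the remaining exons.

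The 4 target genes were all higher in EC than in either other condition, with no overlap between libraries. The fitted fold differences to the control were 6.28 for CYP1A1, 3.86 for CYP1B1, 3.27 for ALDH3A1 and 2.18 for TIPARP. With AHRR, 5 of the 7 members had all EC libraries above all control libraries, where 9.83% of all tested genes did, and the same 5 stood above all PG/VG libraries, where 4.54% did. None of the 7 lay below all control or all PG/VG libraries, where 7.42% and 3.37% of all genes did. At an adjusted p under 0.05, 4 members were called higher in EC vs. control and 4 in EC vs. PG/VG, beside 8.07% and 0.555% of all genes tested, and 0 members were called lower, beside 5.38% and 0.299%. In both directions together, 13.5% and 0.855% of all genes were called. In EC vs. PG/VG DESeq2 called 3 members, without ALDH3A1, and the edgeR call of ALDH3A1 was lost in 4 of 9 fits that left out 1 library. Since the members were chosen with these responses known, the counts are a description.

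**Figure D2:**
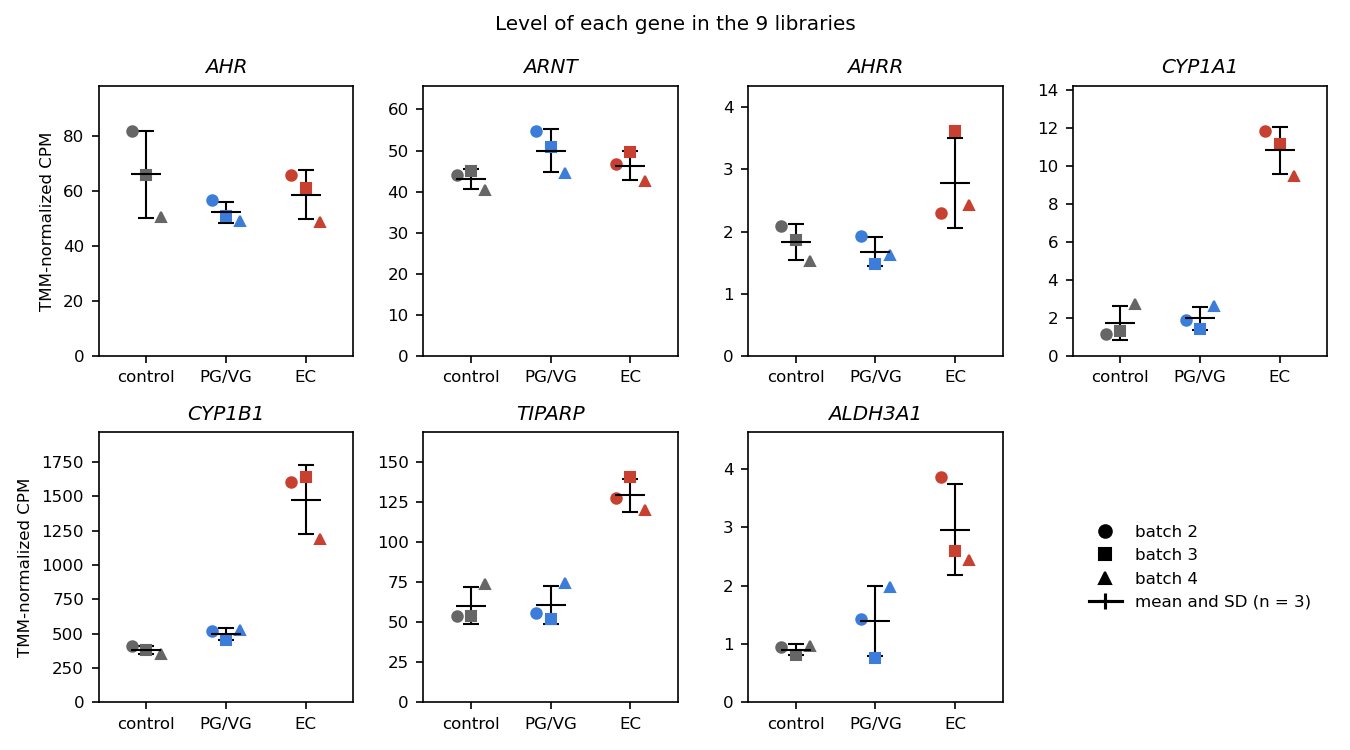
TMM-normalized CPM of each of the 7 genes (vertical axes, linear, from 0) in control, PG/VG and EC cells. Symbols are single libraries, with their shape giving the batch, and the bars are the mean and SD of 3 libraries. CYP1A1, CYP1B1, TIPARP and ALDH3A1 stand clear of both other conditions in EC, and AHR and ARNT overlap in all 3.

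CYP1A1 (ENSG00000140465, chromosome 15 from 74719542 to 74725536, minus strand) converts polycyclic hydrocarbons into reactive epoxides and is the usual readout of AHR activity. Its levels were 1.14, 1.30 and 2.76 CPM in control libraries 2, 3 and 4, from 18, 21 and 49 counts. In PG/VG they were 1.88, 1.42 and 2.62 CPM, and in EC 11.9, 11.2 and 9.47 CPM, from 299, 263 and 191 counts. Library 4 was the highest of its condition in the control and in PG/VG and the lowest in EC. The LFC was 2.65 (SE 0.24) in EC vs. control and 2.47 (SE 0.22) in EC vs. PG/VG, the largest of all 16030 genes tested in the latter comparison and number 6 in the former.

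Within batches, the EC library exceeded its control 9.64-fold in batch 2, 8.08-fold in batch 3 and 3.35-fold in batch 4. In batch 4 the control was higher and the EC level lower than in the other batches. The 18 counts of control library 2 give an exact 95% Poisson interval of 0.678 to 1.81 CPM, and those of EC library 4 one of 8.18 to 10.9 CPM. Such intervals cover counting error only. CYP1A1 shares no exon with another gene.

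CYP1B1 (ENSG00000138061, chromosome 2 from 38066973 to 38109902, minus strand) stood at 409.8, 380.6 and 354.9 CPM without treatment, at 516.7, 451.7 and 526.5 CPM after PG/VG and at 1606, 1638 and 1188 CPM after EC. The 3 conditions did not overlap and stood in the order control, PG/VG, EC. By its mean CPM, the gene took 0.148% of the TMM-scaled library total in EC, compared with 0.0382% in the control. The LFC was 1.95 (SE 0.096) in EC vs. control and 1.56 (SE 0.095) in EC vs. PG/VG.

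The difference of CYP1B1 was the steadiest of the 4 targets, with within-batch values of 1.97, 2.11 and 1.74 on the log2 scale in EC vs. control. In absolute terms it was also by far the greatest. The mean of EC exceeded that of the control by 1096 CPM for CYP1B1, by 69.0 CPM for TIPARP, by 9.11 CPM for CYP1A1 and by 2.05 CPM for ALDH3A1. CYP1A1, with the larger fold, thus remained at a small part of the CYP1B1 level in EC, at 3.23 against 245 CPM per kb.

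The antisense gene CYP1B1-AS1, which overlaps CYP1B1 on the other strand, had 1.12 ± 0.151 CPM without treatment, 1.73 ± 0.587 CPM after PG/VG and 3.74 ± 0.710 CPM after EC. It rose in EC vs. control (LFC 1.74, SE 0.27, adjusted p = 0.000174) and in EC vs. PG/VG (LFC 1.12, SE 0.24, adjusted p = 0.0262), the latter in 5 of 9 fits that each left out 1 library. The antisense gene was looked at because it overlaps CYP1B1, whose response was known, so these values are a description and no independent test. Of the CYP1B1-AS1 exon length, 11.86% overlaps other genes. Reads that overlap several genes were not counted. The strand setting of the counting is not given in the sources used here, so the strand from which the counted reads came is not known for either gene. Of the CYP1B1 exon length, 13% overlaps other genes.

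TIPARP (ENSG00000163659, chromosome 3 from 156673235 to 156706770, plus strand) encodes the ADP-ribosyltransferase that turns AHR signalling down. Control libraries had 53.7, 53.7 and 73.7 CPM, PG/VG libraries 56.0, 51.9 and 74.4 CPM and EC libraries 127.9, 140.4 and 119.9 CPM. Control and PG/VG were nearly superimposed batch by batch, and EC lay above both. The LFC was 1.12 (SE 0.12) in EC vs. control and 1.11 (SE 0.12) in EC vs. PG/VG, with 0.70 in batch 4 and 1.25 and 1.38 in batches 2 and 3 of the former.

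ALDH3A1 (ENSG00000108602, chromosome 17 from 19737984 to 19748943, minus strand) oxidizes aldehydes, including those formed by lipid peroxidation. The untreated libraries had 0.953, 0.805 and 0.957 CPM, from 13 to 17 counts. After PG/VG the values were 1.43, 0.766 and 1.97 CPM, and after EC 3.85, 2.596 and 2.43 CPM. All EC libraries were above all others, while PG/VG spread from below the lowest control to near the lowest EC library. The LFC was 1.71 (SE 0.29) in EC vs. control and 1.09 (SE 0.26) in EC vs. PG/VG, and in the latter it was 0.29 within batch 4 against 1.37 and 1.64 within batches 2 and 3. The exact 95% Poisson intervals of PG/VG library 4 (1.44 to 2.63 CPM) and EC library 4 (1.80 to 3.21 CPM) overlapped.

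In batch 4 the difference between EC and the control was the smallest of the 3 batches for CYP1A1, CYP1B1, TIPARP, ALDH3A1 and ARNT. For AHRR the smallest was in batch 2. With the batch 4 libraries left out, a choice made after the data were seen, the LFC in EC vs. control was 3.21 for CYP1A1, 2.02 for CYP1B1, 1.31 for TIPARP and 1.84 for ALDH3A1.

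With the carrier alone, 2 members changed, CYP1B1 upward and AHR downward, both by small amounts. These differences are tested because the genes were named for their response to EC, although results of this comparison were known as well and the control and PG/VG libraries also stand in the comparisons with EC. At an adjusted p under 0.05, 2 of 7 members were called in PG/VG vs. control, 1 higher and 1 lower. Of all genes tested, 2.63% were called higher and 1.9% lower, 4.54% in all. The LFC of CYP1B1 was 0.39 (SE 0.093, adjusted p = 0.0236) and its level was higher in 3 of 3 batches, by 0.33, 0.25 and 0.57. All its PG/VG libraries exceeded all control libraries, the only member of which that was true, as it was of 7.79% of all genes. None had all PG/VG libraries below all control libraries, as 6.37% of all genes did.

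AHR fell in PG/VG vs. control by 0.32 on the log2 scale (SE 0.085, adjusted p = 0.0347), with within-batch differences of −0.53, −0.37 and −0.039, and PG/VG levels overlapped those of the control. Both calls depend on single libraries. When 1 library at a time was left out, AHR was called in 5 of 9 fits, not without control 2, control 3, PG/VG 2 or PG/VG 3, with an LFC from −0.44 to −0.22 and an adjusted p of up to 0.306. CYP1B1 was called in 3 of 9, those without PG/VG 3, EC 3 or EC 4, with an LFC from 0.23 to 0.50 and an adjusted p of up to 0.164. With batch 4 left out, CYP1B1 was at 0.28 (adjusted p = 0.0783). Without the batch in the model, the adjusted p was 0.649 for CYP1B1 and 0.727 for AHR.

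For the other 5 members no difference passed the test in PG/VG vs. control. TIPARP had an LFC of 0.011 (95% interval −0.23 to 0.25, adjusted p = 0.976) and CYP1A1 one of 0.18 (−0.39 to 0.76, adjusted p = 0.786). AHRR stood at −0.097 (−0.61 to 0.41, adjusted p = 0.878). For ALDH3A1 the LFC was 0.62 (−0.017 to 1.25, adjusted p = 0.293), and for ARNT it was 0.21 (SE 0.077, adjusted p = 0.126). A rise of the size seen for CYP1B1 (0.39) lies within the intervals of CYP1A1, AHRR and ALDH3A1. At an unadjusted p under 0.05, 3 of the 7 passed, beside 3225 of all 16030 genes tested, ARNT being the additional one. DESeq2 called 2 members.

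**Figure D3:**
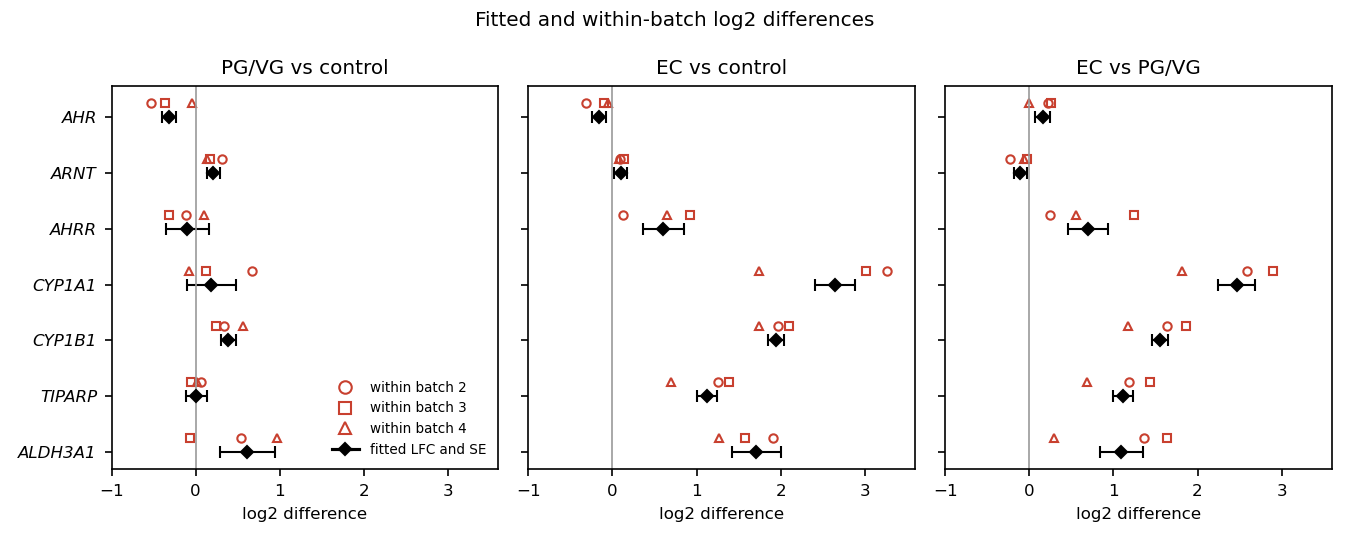
Log2 difference of each gene in PG/VG vs. control, EC vs. control and EC vs. PG/VG. Filled diamonds with bars are the fitted LFC and its SE, open symbols the difference within each of batches 2, 3 and 4, and the vertical line marks 0. The 4 target genes lie to the right of 0 in every batch of both comparisons with EC, and the carrier alone leaves TIPARP at 0.011.

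Expressed as a share of the difference between EC and the control in mean CPM, the difference between PG/VG and the control was 0.627% for TIPARP, 2.64% for CYP1A1, 10.6% for CYP1B1 and 23.7% for ALDH3A1. These shares carry the errors given above and, for TIPARP, CYP1A1 and ALDH3A1, rest on differences that did not pass the test.

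Across the 9 libraries, with batch means removed from the log2 CPM, the targets followed each other closely. Pearson's r was 0.991 between CYP1A1 and TIPARP, 0.978 between CYP1A1 and CYP1B1 and 0.936 between CYP1A1 and ALDH3A1. AHRR followed the 4 targets less closely, with r from 0.759 to 0.850. AHR itself had r between −0.133 and 0.022 with them, and −0.868 with ARNT. These values only describe the 9 libraries, in which the targets fall into EC and the rest, and the genes share libraries and depth. Such closeness was not particular to the members. Ranked by r with CYP1A1 against the 13382 other genes described next, TIPARP would be number 2, CYP1B1 14, ALDH3A1 93 and AHRR 715.

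Among 13382 other genes that had 20 or more counts in each EC library, the 8 whose pattern was most like that of CYP1A1 were ALG6 (r = 0.991), RIPK4 (0.988), HMOX1 (0.986), SLC37A2 (0.983), SMAD7 (0.983), SMOC1 (0.983), BCL3 (0.983) and NEU1 (0.982). HMOX1 encodes haem oxygenase and NEU1 a lysosomal sialidase, SMAD7 and BCL3 encode regulators of signalling, and ALG6 a glucosyltransferase of protein glycosylation. Their LFC in EC vs. control lay between 0.35 for BCL3 and 0.67 for SLC37A2, far from the 2.65 of CYP1A1, so the likeness is one of shape and not of size. With batch means kept, 2 of the 8 remained among the nearest genes.

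**Figure D4:**
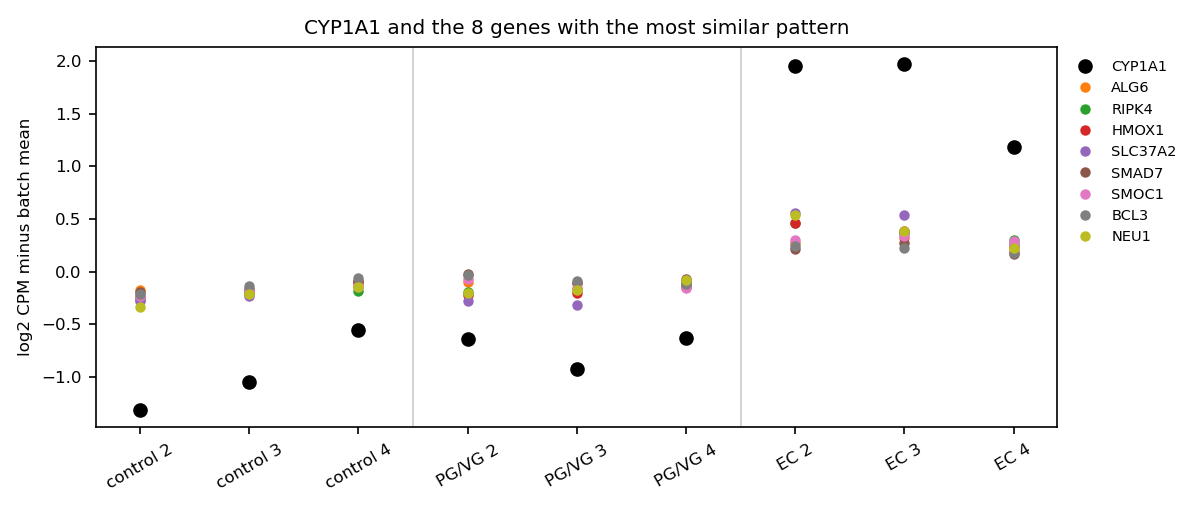
Log2 CPM minus the batch mean (vertical axis) of CYP1A1 and the 8 genes most correlated with it, in each of the 9 libraries. Black points are CYP1A1 and coloured points the other genes. All 9 genes are above their batch means in the 3 EC libraries and below them in the 6 others, with a much wider swing for CYP1A1.

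The lists of related genes that follow were also chosen with earlier results of these data known. Their counts and adjusted p-values are therefore a description and no independent test. Of 18 genes of the cytosolic complex and the coregulators, all tested, 1 rose and 1 fell in EC vs. control, beside 8.07% and 5.38% of all genes tested. In EC vs. PG/VG edgeR called 0 (7 at an unadjusted p under 0.05, 0 with DESeq2), and in PG/VG vs. control 0 (8 and 1). Of all genes tested, edgeR called 0.855% and 4.54% in these comparisons. An unadjusted p under 0.05 was reached by 2064 of the 16030 genes tested in EC vs. PG/VG and by 3225 in PG/VG vs. control. The median LFC in EC vs. control was −0.033, compared with 0.0078 for all genes. RELB, an NF-kappaB subunit that can pair with AHR, rose in EC vs. control (LFC 0.55, SE 0.096, adjusted p = 0.000483). KLF6, a zinc finger factor that can also pair with AHR, fell by 0.33 on the log2 scale (SE 0.070, adjusted p = 0.00276). HSP90AB1, which encodes a form of HSP90, had an LFC of −0.15 in EC vs. control (SE 0.076, adjusted p = 0.199).

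Of the 10 tested bHLH-PAS relatives, edgeR called 0 in every comparison, and DESeq2 called 1 in EC vs. control. Of all genes tested, edgeR called 13.5% in EC vs. control, 0.855% in EC vs. PG/VG and 4.54% in PG/VG vs. control. At an unadjusted p under 0.05 there was 1 of the 10 in EC vs. control and 0 in each of the other comparisons. Of all 16030 genes tested, 4391, 2064 and 3225 reached it in these 3 comparisons. ARNT2, the paralog of ARNT, had an LFC of 0.11 in EC vs. control (SE 0.098), which did not pass, and HIF1A, another partner of ARNT, one of −0.23 (SE 0.077, adjusted p = 0.0515). Genes that HIF factors are known to induce through ARNT make up another list. In EC vs. control 7 of 16 rose and 0 fell, with a median LFC of 0.27, in PG/VG vs. control 3 rose, and in EC vs. PG/VG 1 did, beside 8.07%, 2.63% and 0.555% of all genes tested. ANGPTL4, which inhibits lipoprotein lipase, rose relative to the control with EC (LFC 1.15, SE 0.17, adjusted p = 0.000127) and with PG/VG (LFC 0.98, SE 0.18, adjusted p = 0.0024). NDRG1 rose in EC vs. control (LFC 0.75, SE 0.082, adjusted p = 4.28e-06) and in EC vs. PG/VG (LFC 0.46, SE 0.081, adjusted p = 0.00444), the latter not without PG/VG 4 or EC 4. P4HA1 (LFC 0.28, adjusted p = 0.047) and NDRG1 (LFC 0.29, adjusted p = 0.0467) in PG/VG vs. control, and the weakly expressed EGLN3 in EC vs. control (LFC 1.27, SE 0.41, adjusted p = 0.0441), were called in at most 4 of 9 fits that left out 1 library.

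Of 16 further xenobiotic metabolism genes known as AHR targets, a list also chosen with earlier results known, 5 could be tested. In EC vs. control 3 rose and 0 fell, with a median LFC of 0.53, beside 8.07% and 5.38% of all genes tested. In EC vs. PG/VG and in PG/VG vs. control 1 rose, beside 0.555% and 2.63%. NQO1, a quinone reductase that AHR and NRF2 both induce, stood at 352 ± 90.3 CPM in untreated cells, 363 ± 85.2 CPM after PG/VG and 514 ± 157 CPM after EC. It rose in EC vs. control (LFC 0.53, SE 0.068, adjusted p = 2.13e-05) and in EC vs. PG/VG (LFC 0.48, SE 0.068, adjusted p = 0.000698), in 3 of 3 batches of each, and PG/VG vs. control gave 0.053 (adjusted p = 0.721). ABCG2, an efflux transporter, rose in EC vs. control (LFC 0.75, SE 0.15, adjusted p = 0.00312). EPHX1, the microsomal epoxide hydrolase that acts on products of CYP1A1 and CYP1B1, rose in EC vs. control (LFC 0.56, SE 0.081, adjusted p = 8.3e-05) and in PG/VG vs. control (LFC 0.38, SE 0.082, adjusted p = 0.00906), the latter not without control 2, PG/VG 2 or PG/VG 4.

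NFE2L2, which encodes NRF2, had an LFC of −0.0019 in EC vs. control (adjusted p = 0.989). CYP1A2, the neighbour of CYP1A1 that is typical of liver, had at most 9 counts in any library and was not tested. The 8 UGT1A genes of the list, whose exons overlap each other by 40.3% to 77.9%, were listed at 0 counts in every library. A count of 0 allows up to 3 counts, or 0.119 to 0.191 CPM, but reads in shared exons were not counted. POR, the reductase that supplies electrons to P450 enzymes, stood at 54.5 ± 8.33 CPM in untreated cells, 57.7 ± 2.95 CPM after PG/VG and 66.2 ± 4.37 CPM after EC. It rose in EC vs. control (LFC 0.29, SE 0.077, adjusted p = 0.0149), but not without control 2, control 3 or EC 2.

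Among 25 other genes reported to respond to AHR in various cells, 22 were tested. In EC vs. control 8 rose and 1 fell, in EC vs. PG/VG 5 rose and 0 fell, and in PG/VG vs. control 0 rose and 3 fell, with medians of 0.34, 0.33 and 0.026. Of all genes tested, 8.07%, 0.555% and 2.63% rose and 5.38%, 0.299% and 1.9% fell in these comparisons. FLG, the barrier protein filaggrin, rose in EC vs. control (LFC 0.91, SE 0.19, adjusted p = 0.00228), as did EREG, a ligand of the EGF receptor (LFC 0.65, SE 0.13, adjusted p = 0.00122). GREM1, an antagonist of bone morphogenetic proteins, rose in EC vs. control (LFC 0.57, SE 0.093, adjusted p = 0.000453) and in EC vs. PG/VG (LFC 0.62, SE 0.092, adjusted p = 0.00186). The other genes that rose in EC vs. control were AREG, PTGS2, SLC7A5, HES1 and CDKN1A, and MYC fell, all named after their values were seen.

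The 3 genes of that list that fell in PG/VG vs. control were MMP1, IL1A and IL1B. MMP1, a collagenase, fell in PG/VG vs. control by 0.66 on the log2 scale (SE 0.088, adjusted p = 0.000351) and was higher in EC than in PG/VG (LFC 0.50, SE 0.088, adjusted p = 0.00691), while EC vs. control gave −0.15 (adjusted p = 0.277). IL1A followed, with −0.55 in PG/VG vs. control (adjusted p = 0.0115) and 0.52 in EC vs. PG/VG (adjusted p = 0.0391), and IL1B fell in PG/VG vs. control by 0.47 on the log2 scale (SE 0.10, adjusted p = 0.00856). The call of IL1A in EC vs. PG/VG was kept in 4 of 9 fits that left out 1 library, and that of MMP1 in 6. In PG/VG vs. control, IL1A and IL1B were each called in 7 of 9 and MMP1 in all 9. MMP1 varied strongly between batches, with 532 ± 543 CPM in the control.

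**Figure D5:**
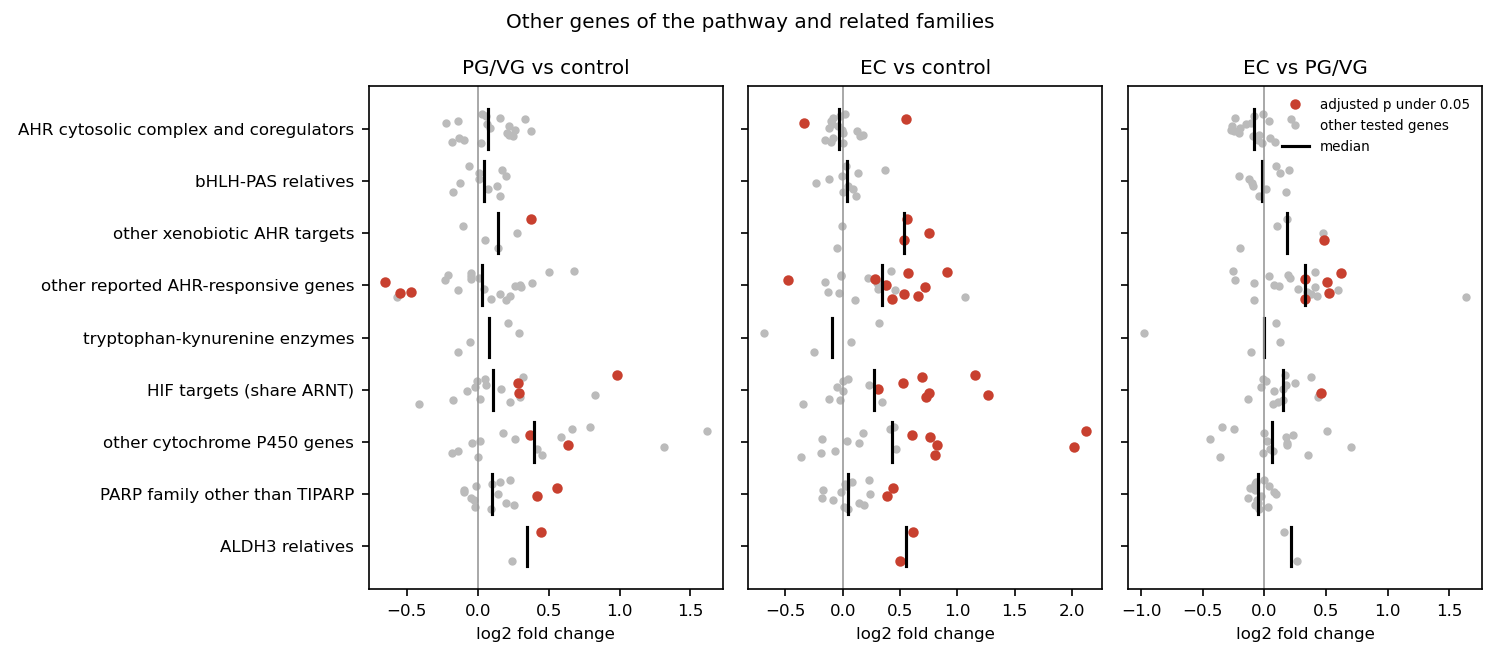
LFC of the tested genes of the 9 lists of related genes in PG/VG vs. control, EC vs. control and EC vs. PG/VG. Each point is a gene, red points have an adjusted p under 0.05, vertical bars are list medians and the grey line marks 0. In EC vs. control most red points are to the right of 0, and EC vs. PG/VG has 7 in all.

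Several relatives of the target enzymes rose with EC and with PG/VG relative to the control. None was called in EC vs. PG/VG, where 0.855% of all genes tested were called and 2064 of 16030 had an unadjusted p under 0.05. With so few calls in all, 0 in lists this short says little. Of 32 other cytochrome P450 genes, 16 were tested, 6 rose and 0 fell in EC vs. control with a median LFC of 0.43, 2 rose in PG/VG vs. control (8.07% and 2.63% of all genes rose in these comparisons), and edgeR called 0 in EC vs. PG/VG (1 at an unadjusted p under 0.05, 0 with DESeq2). CYP4V2, a fatty acid hydroxylase, had an LFC of 0.82 in EC vs. control (SE 0.14, adjusted p = 0.000566) and of 0.64 in PG/VG vs. control (SE 0.15, adjusted p = 0.0136). CYP2R1 and CYP26B1, enzymes of vitamin D and retinoic acid metabolism, rose by 0.80 and 0.76 in EC vs. control (adjusted p = 0.00944 and 0.0194), and the sterol hydroxylase CYP27A1 rose by 0.37 in PG/VG vs. control (adjusted p = 0.0466). Among fits that left out 1 library, CYP4V2 was called in all 9 in EC vs. control and in 6 in PG/VG vs. control, CYP2R1 in 8, CYP26B1 in 6 and CYP27A1 in 3.

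Of 15 tested PARP genes other than TIPARP, PARP14 and PARP9, both induced by interferon, rose with either condensate relative to the control, and edgeR called 0 in EC vs. PG/VG (0 at an unadjusted p under 0.05, 0 with DESeq2). The LFC of PARP14 was 0.44 in EC vs. control (SE 0.080, adjusted p = 0.000682) and 0.56 in PG/VG vs. control (SE 0.080, adjusted p = 0.000351), and that of PARP9 was 0.39 and 0.42, called in 7 and 6 of 9 fits that left out 1 library. ALDH3B1 and ALDH3A2, relatives of ALDH3A1, both rose in EC vs. control, by 0.61 (SE 0.080, adjusted p = 2.61e-05) and 0.50 (SE 0.091, adjusted p = 0.000802), and ALDH3B1 also rose in PG/VG vs. control by 0.45 (adjusted p = 0.00216). The shares of all genes that rose in these comparisons were again 8.07% and 2.63%. In EC vs. PG/VG edgeR and DESeq2 called 0 of these 2 relatives. Both had an unadjusted p under 0.05, as 2064 of all 16030 genes tested did. Of 13 enzymes of the tryptophan to kynurenine route, which makes AHR ligands, 4 were tested. Here edgeR and DESeq2 each called 0 in all comparisons, with 1, 1 and 0 at an unadjusted p under 0.05 in EC vs. control, EC vs. PG/VG and PG/VG vs. control. Of all genes tested, edgeR called 13.5%, 0.855% and 4.54% in these comparisons, and 4391, 2064 and 3225 of 16030 had an unadjusted p under 0.05. TDO2, IDO1 and IDO2, the enzymes of its first step, had at most 4, 8 and 1 counts in any library.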

How the data were processed

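The deposited table holds raw counts per gene, as the authors made them. Per the labels and the methods of the study, reads were trimmed with fastp, aligned with STAR to GRCh38.p12 and counted on exons with featureCounts of Subread 2.0.4, leaving out reads that map to several places or overlap several genes. The strand setting is not given in the sources used here. Of the 9 columns, 0 were unused, and the table was neither batch-adjusted nor normalized. The study describes its replicates as biological, and p-values measure the spread between these samples.

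Genes that reached 10 counts in 3 or more libraries entered the tests, run with edgeR 4.0.16 under R 4.3.3 (TMM, robust quasi-likelihood fit of all 9 libraries, condition and batch as terms, Benjamini-Hochberg over 16030 genes, threshold 0.05). SE is the absolute LFC over the root of the F statistic, and 95% intervals are the LFC ± 1.96 SE. Means are given with the SD of 3 libraries. The batch is the label's number, and libraries with different numbers had deviation correlations from −0.539 to 0.426. Replicates differed by more than sampling noise (chi-square per gene of at least 3.66). Gene positions and exon lengths are those of GENCODE release 44, and promoters those of RefSeq.

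The members and all lists were chosen with earlier results of these data known. Besides the 7 members and 8 always named genes of the pathway, up to 3 genes per list and comparison are named, those with the largest LFC among called genes with the same sign in 3 batches and at least 20 counts in each library of the higher group. One result that this rule covers is not reported here. Alternatives were no replicate block, RLE or library size scaling, no filter or a minimum of 10 counts in each library, a DESeq2 1.42.0 fit with the batch, ComBat-Seq (sva 3.50.0) followed by DESeq2, the 2 groups alone, each library left out and, added after seeing the data, batch 4 left out.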

Additional observations from a re-analysis of the deposited data

How the results depend on the processing

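Leaving the replicate block out of the model, EC vs. control gave 16 genes in place of 2157, EC vs. PG/VG 1 in place of 137 and PG/VG vs. control 1 in place of 727. Members called were then 2 of the 4, 1 of the 4 and 0 of the 2, and genes of the 9 lists 0 in every comparison in place of 31, 7 and 12. EC vs. PG/VG gave 309 genes without a filter, 621 with ComBat-Seq and DESeq2 (13 in the lists) and 318 with the 2 groups alone. PG/VG vs. control gave 1682 with ComBat-Seq and DESeq2 (19 in the lists) and 1179 with the 2 groups alone (21 in the lists). The batch term called 2 members without a filter in place of 1. With batch 4 left out, the 3 comparisons gave 1216, 80 and 324 genes, and 1 member was called in PG/VG vs. control. When 1 library at a time was omitted, EC vs. control ranged from 1162 to 2172 genes (lists 24 to 31, members 4 to 4), EC vs. PG/VG from 32 to 208 (lists 3 to 7, members 3 to 4), PG/VG vs. control from 192 to 1084 (lists 5 to 17, members 0 to 2) and the batch term from 3926 to 5465 (members 1 to 3). The member lost in EC vs. PG/VG was ALDH3A1, without PG/VG 2, PG/VG 3, EC 2 or EC 3. For the likeness to CYP1A1, 2 of 8 genes remained with batch means kept and 8 with a prior count of 0.5. The causes were not tested.

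Across the alternatives, the LFC in EC vs. control ranged from 2.39 to 3.21 for CYP1A1, from 1.83 to 2.07 for CYP1B1, from 0.97 to 1.31 for TIPARP and from 1.51 to 2.02 for ALDH3A1, and no called difference of a member changed direction. Low counts limit the precision of AHRR, CYP1A1 and ALDH3A1, and in EC vs. control the differences of the 4 targets were smallest in batch 4. One cell line and one dose of one flavoured liquid were studied.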
